A study of Homo sapiens with 16 samples.

Results

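The genes described here are 40 genes of DNA replication and of nucleotide synthesis, followed through 16 RNA-seq libraries of human colon cancer cells. They were chosen by name from the gene symbols of the deposited FPKM table and matched by Ensembl identifier to the count table, where all 40 were found among 63677 identifiers. By role they comprise 11 genes of the replicative helicase, 4 of origin licensing, 5 of the sliding clamp and its loader, 7 of the polymerases and primase, 5 of strand processing, 4 of nucleotide supply, 3 of chromatin assembly, and the regulator E2F1. Of these, RFC2 had a second identifier with 0 reads, and the identifier with reads was used. The samples were SW620 and SW480, cell lines derived from a metastasis and from the primary tumor of one colon cancer. In SW620, 5 groups were sequenced: cells transduced with ESR2, which encodes estrogen receptor beta (ERB), after 24 h with 10 nM estradiol; the same transduced cells after 24 h with DMSO; the same transduced cells untreated; cells transduced with empty vector; and untransduced parental cells. In SW480, 3 groups were sequenced, namely ERB-transduced, empty-vector-transduced and parental cells, all untreated. Each of the 8 groups held 2 libraries, numbered I and II. Both lines were grown in DMEM with serum, per the labels, and estradiol was tested only in SW620 carrying ERB, with no estradiol-treated cells that lack the receptor. The labels do not name the solvent of estradiol, the promoter of the vector, the number of clones, or a change of medium with treatment.

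Replication begins when the origin recognition complex, CDC6 and CDT1 load the MCM helicase onto origins in G1. In S phase CDC45 and the GINS proteins activate the helicase, primase and the polymerases copy the strands, the clamp PCNA holds the polymerases on DNA, and FEN1 and LIG1 join the lagging strand, while ribonucleotide reductase, thymidylate synthase and thymidine kinase supply deoxynucleotides. Most of these genes are transcribed at the G1/S boundary under E2F factors held in check by the RB protein, so their mRNAs are abundant in cycling cell populations, such as cultured colon cancer cells, and scarce in resting ones. In bulk RNA, fewer cells in S phase and less mRNA per cell cannot be told apart.

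Library totals ran from 12743940 to 18948283 counts, and the 40 genes had 13 to 30385 reads in a library, so counting error was small beside the spread between libraries for all but the least abundant genes. ESR2 had 100 to 187 reads in the 8 libraries of ERB-transduced cells and 0 to 4 reads in the other 8. Replicate libraries differed by more than counting error in each of the 8 groups, by 6.81 to 255 chi-square units per degree of freedom, most in SW480 with empty vector. Nothing in the labels says that replicates came from separate cultures, so p-values measure the spread between libraries, which may be technical. Of 300 genes that were at least 8-fold higher in parental SW480 than in parental SW620, none of them among the 40, the median level was 2.2% and 2.1% of that of parental SW480 in the 2 empty vector libraries labelled SW480 and 17.1% and 21.0% in those labelled SW480 with ERB, against 1.41% to 2.02% in the SW620 libraries. The SW480 labels of these 4 transduced libraries therefore go against the expression of the parental line, and the results that rest on them are given by label. The epithelial keratins KRT8 and KRT18 were expressed in every library. So were the epithelial and colon markers EPCAM at 24.8 to 201 CPM, VIL1 at 98.8 to 655 CPM and CDX2 at 7.72 to 30.0 CPM. The colon markers CDX1, KRT20 and CEACAM5 were low, at 0 reads, at most 0.414 CPM and at most 0.535 CPM. Of other cell types, 8 fibroblast marker genes summed to 5.32 to 24.1 CPM and 7 leukocyte marker genes to 0.611 to 4.62 CPM, and COL3A1, a fibroblast collagen, had 0 reads in every group.

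Levels between genes are compared per length, in the authors' FPKM averaged over the 16 libraries. The most abundant were the helicase subunits MCM7 at 573 FPKM and MCM4 at 382 FPKM and the thymidine kinase TK1 at 316 FPKM. The least abundant were the large primase subunit PRIM2 at 12.4 FPKM, POLE2, the second subunit of polymerase epsilon, at 9.36 FPKM, and POLA1, the catalytic subunit of polymerase alpha, at 8.56 FPKM. All other levels below are CPM, counts scaled to library size with TMM factors over the 16 libraries, which compare a gene between libraries. On this scale the widest range of group means was that of TK1, from 56.7 CPM in SW620 with DMSO up to 1219 CPM in SW480 with ERB, a range of 4.43 on the log2 scale. RFC3, a subunit of the clamp loader, spanned 3.89 and MCM5 spanned 3.74 on that scale. The narrowest ranges were those of GINS3 at 0.93, ORC6, a subunit of the origin recognition complex, at 0.99 and MCM3 at 1.16. The lowest group mean fell to DMSO-treated SW620 for 26 genes, to estradiol-treated SW620 for 12 and to SW480 with ERB for 2 (PRIM1 and POLA1). The highest was in SW480 with ERB for 13 genes, in parental SW620 and parental SW480 for 11 each, in SW480 with empty vector for 3 and in SW620 with empty vector for 2.

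**Figure D1:**
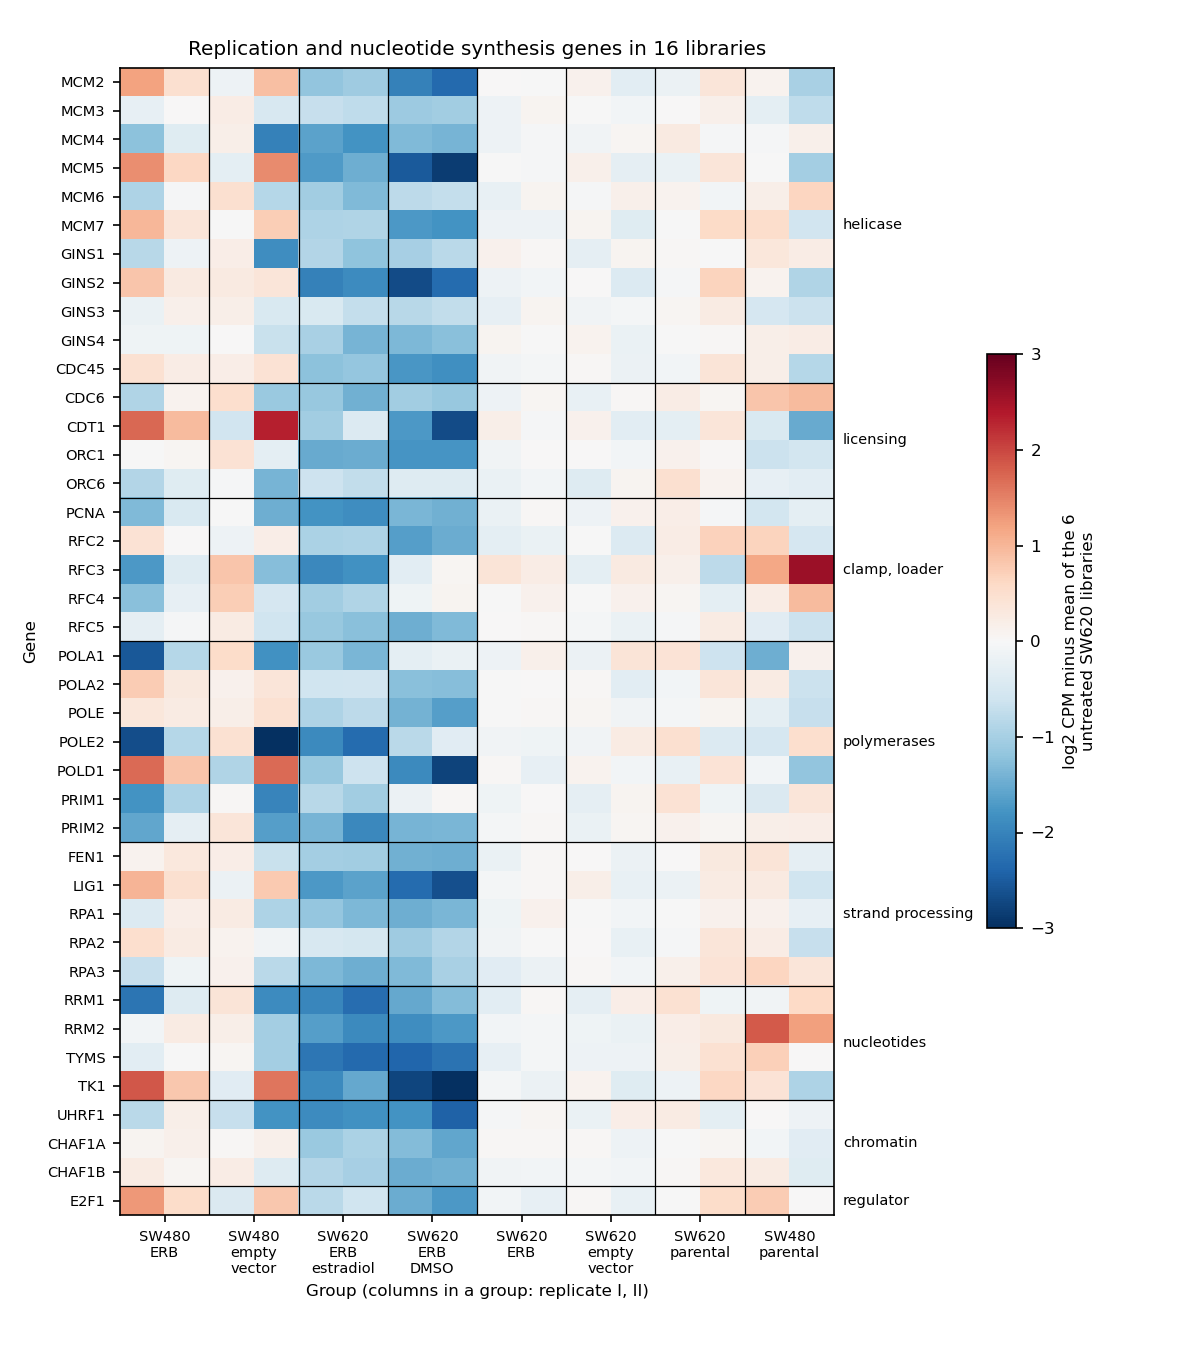
Level of each of the 40 genes (rows, by role) in each of the 16 libraries (columns, 2 per group), as log2 CPM minus the mean of the 6 untreated SW620 libraries; blue is lower and red higher, with colors ending at 3 in either direction. The 4 libraries of estradiol- and DMSO-treated SW620 are blue in nearly every row, whereas the SW480-labelled transduced libraries are red in some rows and blue in others.

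The 24 h treatments were where these genes moved together. In SW620 with ERB, 34 of 40 genes fell with estradiol relative to untreated cells, against a background of 9.53% of 16533 genes tested, and 34 of 40 fell with DMSO, against a background of 25.2% (edgeR quasi-likelihood test, adjusted p under 0.05 over all genes). No gene of the 40 rose in either comparison. The median log2 fold change of the 40 was -1.12 with estradiol and -1.36 with DMSO, beside 0.0028 and 0.02 over all genes tested. As a share of all reads, the 40 genes together took 0.418% and 0.403% of the estradiol libraries and 0.411% and 0.407% of the DMSO libraries, against 0.85% and 0.901% of the untreated ERB libraries. Across the line, all 4 treated libraries lay below all 6 untreated SW620 libraries for 34 of 40 genes, beside 12.0% of 17464 genes; the exceptions were ORC6, RFC3, RFC4, POLA1, POLE2 and PRIM1. The 2 comparisons share the untreated libraries. Between DMSO-treated and untreated cells the solvent and the handling over 24 h cannot be told apart, and whether the estradiol libraries received the same solvent is not stated.

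**Figure D2:**
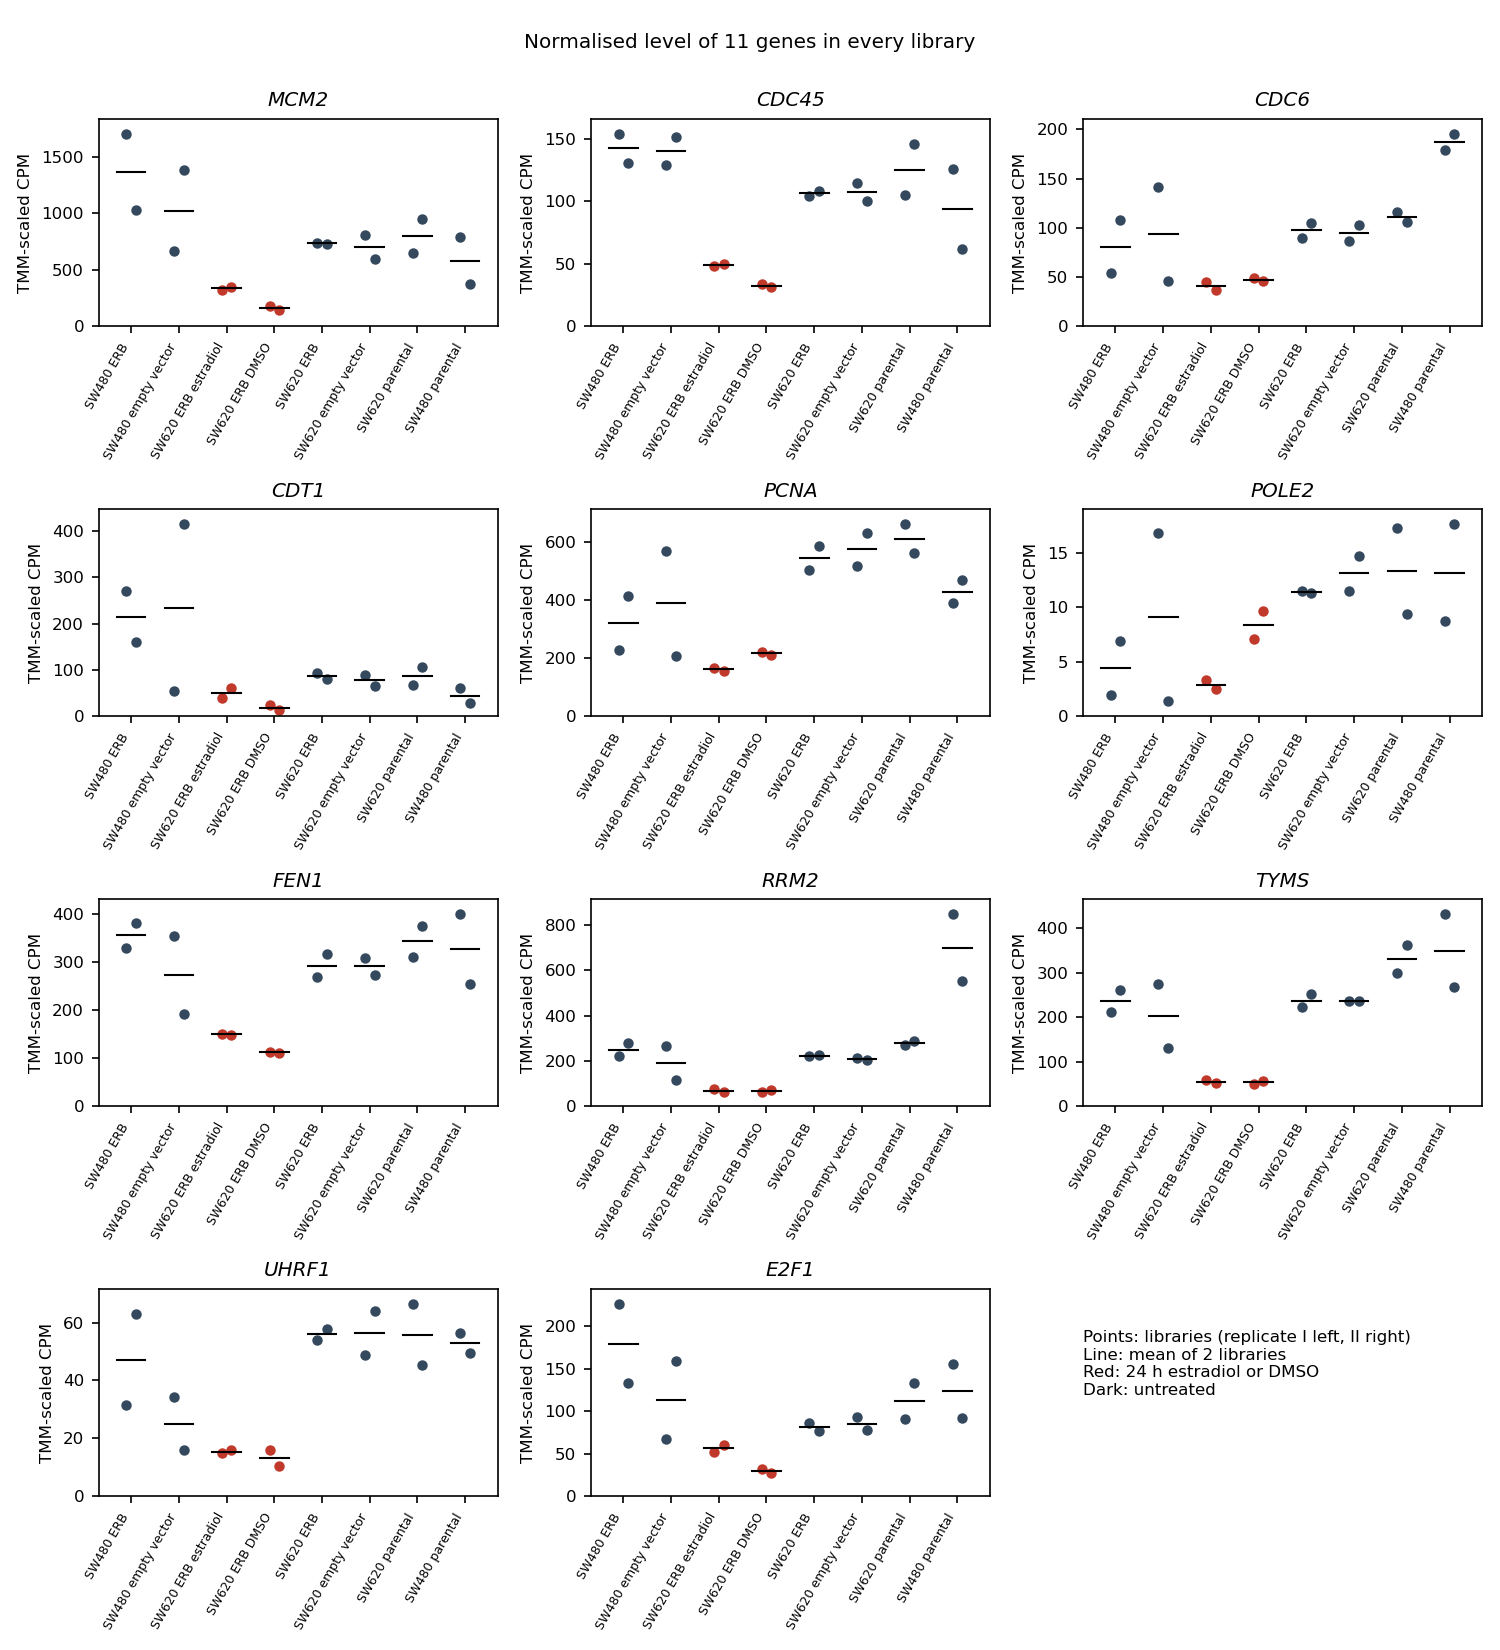
TMM-scaled CPM of 11 genes in every library, from 0, with points for libraries I and II, a line at the mean of both and red for the 4 treated SW620 libraries. TYMS lies between 50.7 and 59.1 CPM in the treated libraries and between 223 and 363 CPM in the untreated SW620 libraries.

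Of the roles, nucleotide supply had the lowest median log2 fold changes, -1.83 with estradiol and -1.93 with DMSO, and 4 of 4 genes fell in both. TYMS, thymidylate synthase, which makes the thymidine nucleotide, had 59.1 and 52.3 CPM with estradiol and 50.7 and 56.9 CPM with DMSO, against 223 and 252 CPM in untreated ERB cells. It was 4.23-fold lower with estradiol (log2 fold change -2.08 with an SE of 0.16, adjusted p = 4.84e-05) and 4.42-fold lower with DMSO (log2 fold change -2.14 with an SE of 0.16, adjusted p = 4.51e-05), and had the smallest p of the 40 in both. RRM2, the regulatory subunit of ribonucleotide reductase, had 74.9 and 63.0 CPM with estradiol and 64.2 and 71.6 CPM with DMSO, against 222 and 226 CPM untreated. All treated libraries of TYMS and RRM2 lay close together and far under the untreated ones. The fall of RRM2 was 3.21-fold with estradiol (adjusted p = 0.000104) and 3.29-fold with DMSO (adjusted p = 8.82e-05). RRM1, the catalytic subunit, had 62.8 and 50.1 CPM with estradiol and 84.0 and 98.3 CPM with DMSO, against 195 and 250.1 CPM, with log2 fold changes of -1.97 and -1.29. TK1, which salvages thymidine, had 122 and 157 CPM with estradiol and 67.3 and 46.2 CPM with DMSO, against 439 and 404 CPM untreated. Its log2 fold change with DMSO, -2.89 (SE 0.29, adjusted p = 0.000146), was the lowest of the 40, and with estradiol it was -1.58 (SE 0.27, adjusted p = 0.00331). Reads of TYMS may include some of ENOSF1, which overlaps it on the other strand, because no source used here gives the use of strand in counting.

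In the helicase, 10 of 11 genes fell with estradiol and 11 of 11 with DMSO, with median log2 fold changes of -1.11 and -1.35. MCM2 had 325 and 350.3 CPM with estradiol and 181 and 147 CPM with DMSO, against 740.1 and 725 CPM untreated (2.15-fold lower, adjusted p = 0.00513, and 4.46-fold lower, adjusted p = 0.000146). MCM5 had 104 and 122 CPM with estradiol and 59.2 and 46.6 CPM with DMSO, against 336 and 328 CPM untreated, and its fall of 6.27-fold with DMSO was the largest of the ring. Subunits of one hexamer thus differed in size of change: with DMSO the log2 fold changes were -2.16 for MCM2, -1.03 for MCM3, -1.27 for MCM4, -2.65 for MCM5, -0.70 for MCM6 and -1.61 for MCM7. With estradiol they were -1.10, -0.68, -1.59, -1.55, -1.11 and -0.76 in the same order. Transcript GC content in that order was 58.1%, 51.6%, 48.5%, 58.6%, 43.1% and 56.5%. Over the 39 genes with a known GC content it ran with the log2 fold change with DMSO (Spearman correlation -0.79). The part of GC content in the differences between subunits was not tested. MCM4 had 169 and 147 CPM with estradiol and 204 and 193 CPM with DMSO, against 459 and 497 CPM untreated. Of the GINS complex, which activates the helicase, GINS2 had 40.4 and 44.7 CPM with estradiol and 25.5 and 33.1 CPM with DMSO, against 148 and 156 CPM untreated, and fell 3.54-fold and 5.18-fold. GINS3 had 41.4 and 34.9 CPM with estradiol, against 48.3 and 60.5 CPM untreated, and did not pass the test there (log2 fold change -0.50, 95% interval -0.89 to -0.11, adjusted p = 0.0682). CDC45, the third part of the active helicase, had 48.0 and 50.2 CPM with estradiol and 33.5 and 31.2 CPM with DMSO, against 105 and 108 CPM untreated, and the groups did not overlap.

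Among the licensing factors, ORC1, the ATPase of the origin recognition complex, fell in both comparisons, with 29.6 and 30.3 CPM with estradiol and 24.6 and 24.5 CPM with DMSO, against 78.4 and 84.7 CPM untreated (adjusted p = 0.000248 and 8.68e-05). CDC6, which joins the complex to load the helicase, had 45.4 and 37.0 CPM with estradiol and 48.6 and 45.6 CPM with DMSO, against 90.0 and 105 CPM untreated (2.35-fold and 2.07-fold lower). CDT1, the second loading factor, had 39.8 and 62.0 CPM with estradiol and 25.1 and 12.9 CPM with DMSO, against 92.6 and 80.0 CPM untreated. It fell with DMSO (log2 fold change -2.18, adjusted p = 0.00112) and did not pass the test with estradiol (log2 fold change -0.75, 95% interval -1.48 to -0.02, adjusted p = 0.131). Its libraries differed within both groups, with library II minus library I at -0.94 with DMSO and 0.63 with estradiol on the log2 scale. ORC6 passed in neither, with 42.4 and 39.1 CPM with estradiol and 50.01 and 50.4 CPM with DMSO, against 56.9 and 62.1 CPM untreated.

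PCNA, the sliding clamp, had 167 and 158 CPM with estradiol and 223 and 212 CPM with DMSO, against 504 and 587 CPM untreated, a fall of 3.33-fold (adjusted p = 0.000225) and 2.51-fold (adjusted p = 0.000483). Of the 4 clamp loader subunits, RFC2 and RFC5 fell in both comparisons, whereas RFC3 and RFC4 fell with estradiol and did not pass the test with DMSO. With the GC and length offsets given below, all 40 genes fell in both comparisons, these 4 among them. RFC3 had 6.66 and 7.21 CPM with estradiol and 20.3 and 26.3 CPM with DMSO, against 33.4 and 29.6 CPM untreated (log2 fold change -2.17, adjusted p = 0.00194, with estradiol, and -0.44, adjusted p = 0.263, with DMSO). The polymerases had the smallest share of calls with DMSO, 4 of 7, and 6 of 7 fell with estradiol. POLE, the catalytic subunit of the leading-strand polymerase, had 91.8 and 100.9 CPM with estradiol and 65.4 and 55.4 CPM with DMSO, against 174 and 179.7 CPM untreated. Its partner POLE2 had 3.30 and 2.51 CPM with estradiol and 7.07 and 9.70 CPM with DMSO, against 11.5 and 11.3 CPM untreated, and passed with estradiol only (3.89-fold lower, adjusted p = 0.00383; with DMSO adjusted p = 0.263). POLD1, the catalytic subunit of the lagging-strand polymerase, passed with DMSO only, with 54.8 and 77.6 CPM with estradiol and 31.9 and 17.5 CPM with DMSO, against 123 and 101.4 CPM untreated (adjusted p = 0.0955 with estradiol and 0.000673 with DMSO). PRIM1, the catalytic primase subunit, overlapped between groups, with 44.1 and 51.0 CPM with DMSO, against 45.6 and 49.6 CPM untreated, and was 1.81-fold lower with estradiol.

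Of the strand-processing genes, 4 of 5 fell with estradiol and 5 of 5 with DMSO. LIG1, the ligase that seals Okazaki fragments, had 35.7 and 38.3 CPM with estradiol and 23.5 and 18.9 CPM with DMSO, against 112 and 119.6 CPM untreated (3.11-fold lower, adjusted p = 0.000537, and 5.46-fold lower, adjusted p = 7.03e-05). FEN1, the flap nuclease, had 151 and 149 CPM with estradiol and 114 and 111 CPM with DMSO, against 269 and 317 CPM untreated. RPA1, of the single-strand binding complex, fell 2.35-fold and 2.67-fold, and its partner RPA2 fell 1.88-fold with DMSO and did not pass with estradiol (log2 fold change -0.44, adjusted p = 0.0786). All 3 chromatin assembly genes fell in both comparisons. UHRF1, which carries DNA methylation through replication, had 14.9 and 15.8 CPM with estradiol and 16 and 10.3 CPM with DMSO, against 54.0 and 57.9 CPM untreated, and the histone chaperone subunit CHAF1A had 47.1 and 52.8 CPM with estradiol and 41.0 and 34.5 CPM with DMSO, against 104 and 105 CPM untreated. E2F1 itself had 51.9 and 60.7 CPM with estradiol and 32.4 and 27.5 CPM with DMSO, against 86.7 and 76.3 CPM untreated; the difference with DMSO passed the test (log2 fold change -1.44 with an SE of 0.20, adjusted p = 0.00069) and that with estradiol did not (log2 fold change -0.52 with an SE of 0.20, adjusted p = 0.089).

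**Figure D3:**
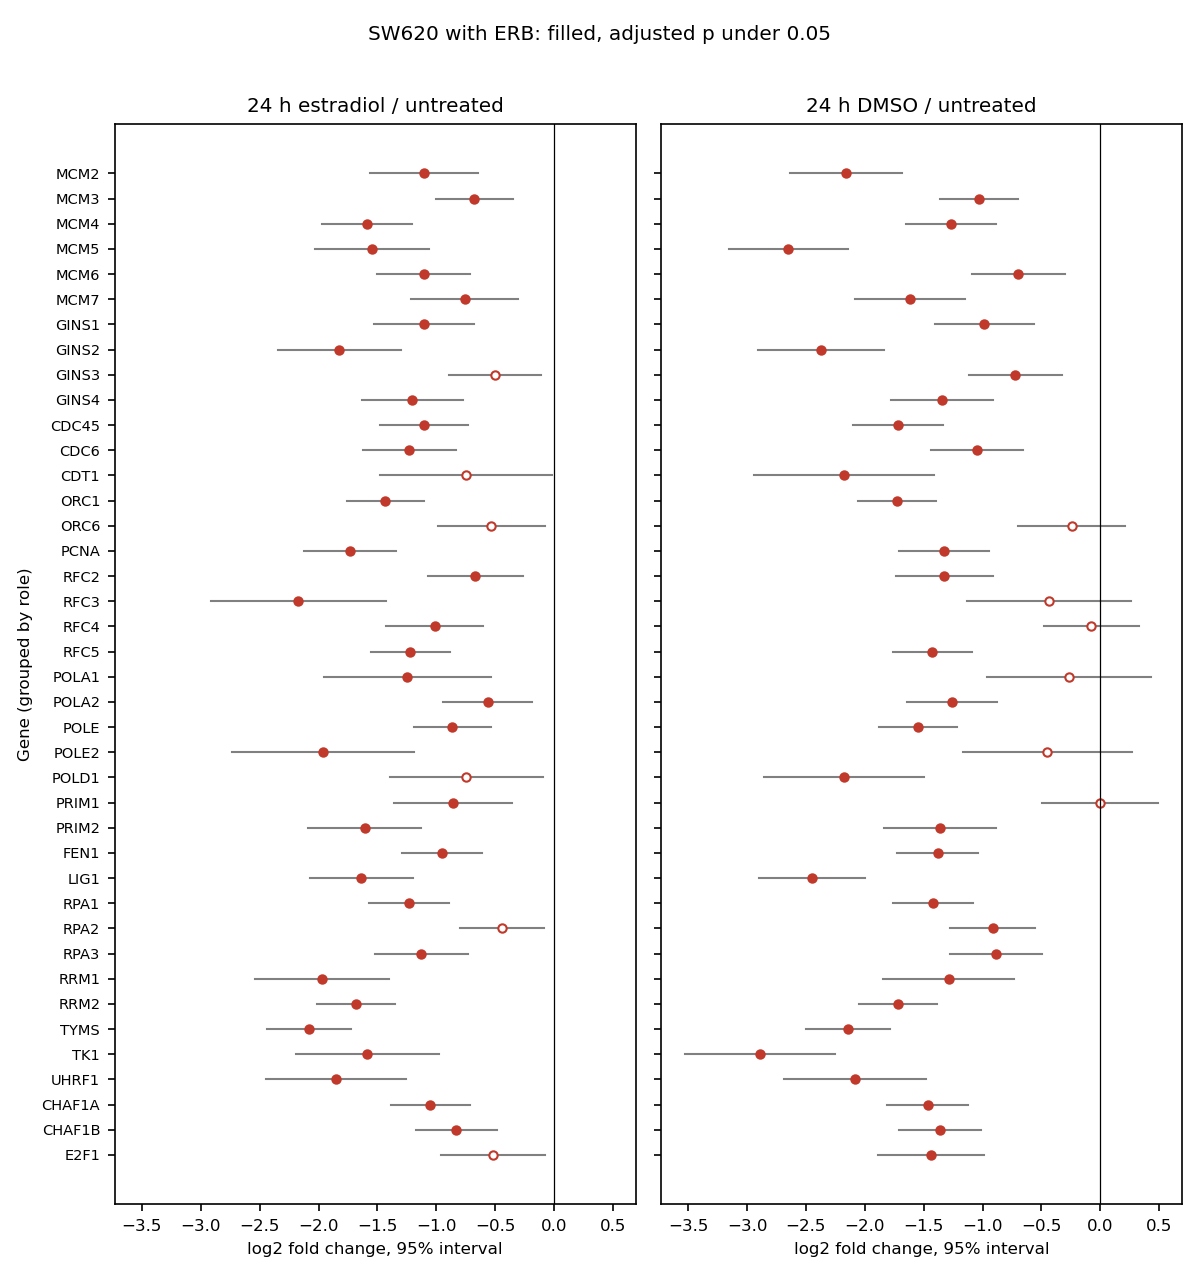
Log2 fold change of each of the 40 genes, grouped by role, with 95% intervals, for 24 h estradiol against untreated (left) and 24 h DMSO against untreated (right) in SW620 with ERB; filled points passed adjusted p under 0.05. All 40 estimates lie below 0 in both panels, from -2.17 to -0.44 with estradiol and from -2.89 to -0.0019 with DMSO.

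No gene of the 40 rose under any scaling or test tried. All 40 estimates with estradiol stayed below 0, and with DMSO 36 of 40 did by library totals, a scaling that puts the median of all genes at 0.39, and by FPKM. With a fit of all 16 libraries, which takes in the wide spread of the SW480-labelled libraries, 5 of 40 genes fell with estradiol (background 0.670%), namely GINS2, ORC1, RRM2, TYMS and CHAF1A, and 19 of 40 with DMSO (background 3.76%). With offsets for the trend of each library with transcript GC content and length, 40 of 40 fell with estradiol (background 18.6%) and 40 of 40 with DMSO (background 23.7%). Over the 39 genes with a known GC content the Spearman correlation of GC content with the log2 fold change was -0.79 with DMSO and 0.30 with estradiol, and over all genes tested it was -0.60 and 0.27; these are descriptions across genes that share libraries and depth. Where GC content was known, its median was 51.6% for the 34 genes that passed with DMSO and 43.0% for the 6 that did not. With estradiol it was 50.7% for the 34 that passed and 56.4% for the 6 that did not. With the offsets, RFC3 had a log2 fold change of -1.08 with DMSO, POLE2 -1.47, PRIM1 -0.88, TK1 -2.02 and MCM5 -1.86. UHRF1, whose GC content is not known, was not corrected.

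To show what many of these promoters share, the windows from 250 bases before to 50 bases after the start were taken from RefSeq (GRCh38.p14) for the 35 genes found by symbol. An E2F motif, written TTTCCCGC, TTTCGCGC, TTTGCCGC or TTTGGCGC and searched on both strands with overlaps counted, was present at 1 or more starts of 19 of 35 genes (54.3%), against 3.99% of 27305 genes in the table. The CCAAT letters bound by NF-Y were present in 21 of 35 genes and in 39.7% of all genes, and TTTGAA, part of the element of late cell cycle genes, in 2.86% (RRM1 alone) and 18.2%. A match is a description of letters in this window. The windows of the licensing factor CDC6 (chr17:40287629-40287928, plus strand), the helicase subunit MCM2 (chr3:127598161-127598460, plus strand) and the regulator E2F1 (chr20:33686336-33686635, minus strand) follow, 5′ to 3′ in the direction of the gene, with E2F matches in capitals.
CDC6: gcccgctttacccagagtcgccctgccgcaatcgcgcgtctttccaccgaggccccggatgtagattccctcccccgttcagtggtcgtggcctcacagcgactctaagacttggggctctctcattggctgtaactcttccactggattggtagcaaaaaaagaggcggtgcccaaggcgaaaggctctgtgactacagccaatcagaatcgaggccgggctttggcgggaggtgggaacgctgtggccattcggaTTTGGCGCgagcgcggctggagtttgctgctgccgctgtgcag
MCM2: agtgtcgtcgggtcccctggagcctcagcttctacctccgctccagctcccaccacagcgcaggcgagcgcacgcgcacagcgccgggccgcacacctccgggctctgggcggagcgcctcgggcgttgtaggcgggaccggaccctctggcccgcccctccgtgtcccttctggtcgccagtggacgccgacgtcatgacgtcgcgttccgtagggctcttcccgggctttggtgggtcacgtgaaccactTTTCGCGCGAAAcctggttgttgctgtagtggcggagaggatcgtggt
E2F1: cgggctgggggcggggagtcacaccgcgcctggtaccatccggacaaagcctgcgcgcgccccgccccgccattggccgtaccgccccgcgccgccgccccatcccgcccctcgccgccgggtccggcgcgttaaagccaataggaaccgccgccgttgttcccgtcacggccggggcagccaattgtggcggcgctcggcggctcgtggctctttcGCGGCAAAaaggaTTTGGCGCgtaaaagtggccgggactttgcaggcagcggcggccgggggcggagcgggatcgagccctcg
CDC6 holds 1 match, MCM2 holds 2 that overlap on opposite strands in one palindromic run, and E2F1 holds 2. All 3 genes had lower levels in treated than in untreated SW620 with ERB, with CDC6 at -1.23 and -1.05, MCM2 at -1.10 and -2.16 and E2F1 at -0.52 and -1.44 (log2 fold change with estradiol and with DMSO). Of the 6 genes that did not pass with DMSO, RFC3, POLA1 and POLE2 also hold a match.

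Whether estradiol adds to the treatment was asked by setting it against DMSO. There the 40 genes split: 16 rose (background 29.4%) and 6 fell (background 23.6%), with a median log2 fold change of 0.22 beside 0.09 over all genes tested. The share that rose, 16 of 40, stands beside a background that is itself large, since 8759 of 16533 genes passed in this comparison. Those with the smallest p among the genes that rose were MCM2, MCM5, TK1, POLD1, POLE, E2F1, CDT1 and MCM7. POLD1 had 54.8 and 77.6 CPM with estradiol, against 31.9 and 17.5 CPM with DMSO (log2 fold change 1.43 with an SE of 0.30, adjusted p = 0.00687). TK1 had 122 and 157 CPM, against 67.3 and 46.2 CPM with DMSO (log2 fold change 1.31 with an SE of 0.27, adjusted p = 0.00687). E2F1 had 51.9 and 60.7 CPM, against 32.4 and 27.5 CPM with DMSO (log2 fold change 0.92 with an SE of 0.20, adjusted p = 0.00709). In all 3 both estradiol libraries lay above both DMSO libraries, which follows closely from naming genes by the smallest p and adds no support. The 6 that fell were RFC3, RFC4, POLE2, PRIM1, POLA1 and RRM1. RFC3 had 6.66 and 7.21 CPM with estradiol, against 20.3 and 26.3 CPM with DMSO (log2 fold change -1.73 with an SE of 0.33, adjusted p = 0.00687), and POLE2 had 3.30 and 2.51 CPM, against 7.07 and 9.70 CPM (log2 fold change -1.51 with an SE of 0.35, adjusted p = 0.0077). TYMS and RRM2 overlapped between the groups, with log2 fold changes of 0.06 (95% interval -0.28 to 0.41) and 0.03 (95% interval -0.29 to 0.36).

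The direction of these changes ran with base composition. Transcripts of the 16 genes that rose had a median GC content of 56.8% (48.1% to 65.3%), those of the 6 that fell 43.0% (38.0% to 44.5%) and those of the other genes 48.2%. Over the 39 genes the Spearman correlation of GC content with the log2 fold change of estradiol against DMSO was 0.92, and over all genes tested it was 0.83. With GC and length offsets it was -0.14 over the 39 genes. A value near 0 follows from the offsets, which remove the trend of each library with GC content. Any change in expression that ran with GC content would be removed as well. With the offsets, 5 of 40 genes rose (background 10.5%) and 2 fell (background 7.40%). The 5 were PRIM2, CHAF1B, RPA2, POLA2 and RRM2, and the 2 were RFC3 at -0.95 and RFC4 at -0.37. TK1, POLD1, CDT1 and E2F1 were then at 0.22, 0.27, 0.23 and -0.03 and did not pass the test, nor did POLE2 at -0.04. PRIM1, POLA1 and RRM1 were then at 0.33, 0.06 and 0.02, with the sign turned, and did not pass the test. Without estradiol library II 0 genes passed in the fit of counts without offsets (background 0.00%), without DMSO library II 2 passed (background 3.61%), and in the fit of all 16 libraries 0 passed (background 0.00%). By library totals, which move the median of all genes to -0.27, 9 rose (background 16.9%) and 10 fell (background 32.4%). What sets this relation with GC content in the libraries was not tested.

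**Figure D4:**
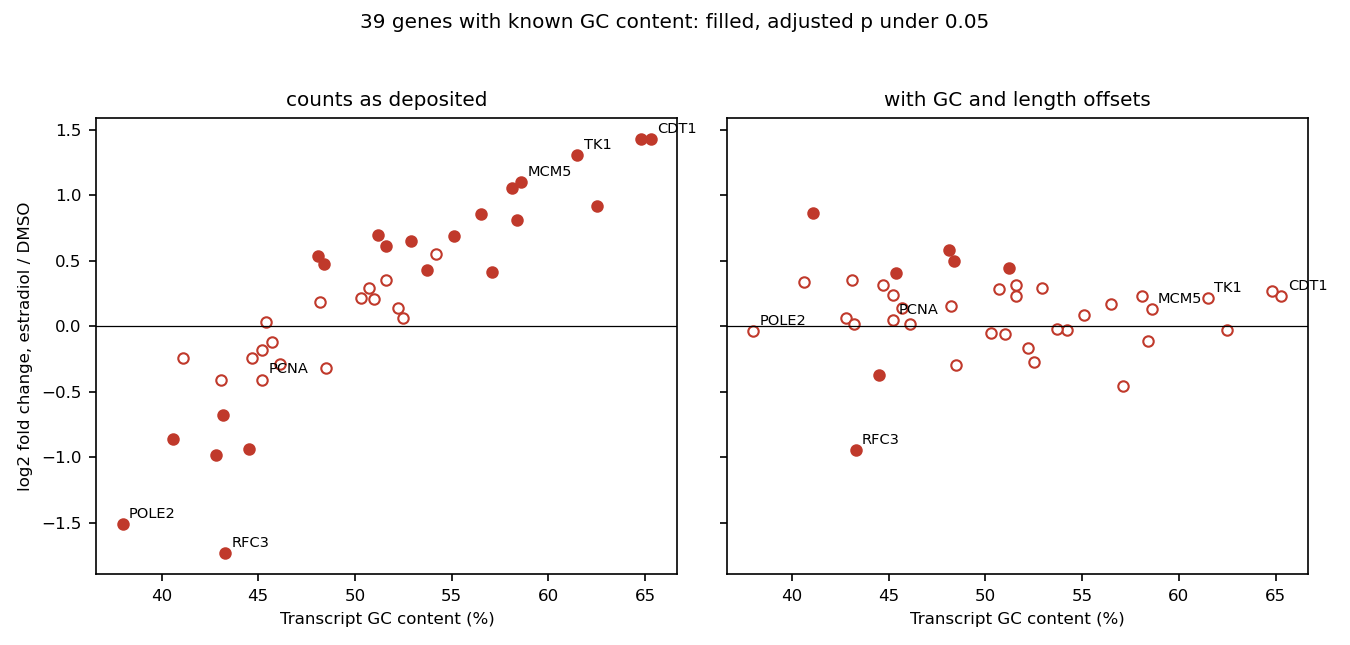
Log2 fold change of estradiol against DMSO (vertical axis) against transcript GC content in percent (horizontal axis) for 39 genes, from the deposited counts (left) and with GC and length offsets (right); filled points passed adjusted p under 0.05. On the left the points rise with GC content, with POLE2 and RFC3 lowest and CDT1 and TK1 among the highest; on the right RFC3 stays lowest at -0.95 and TK1 is at 0.22.

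Other genes of the same pathways are counted beside the shares of all genes, of which 9.53% fell and 11.4% rose with estradiol and 25.2% fell and 23.6% rose with DMSO. Genes named from a list were among the 3 called with the smallest p in a comparison, unless a whole group of calls is named. Of 32 further replication factors, 15 fell and 1 rose with estradiol and 12 fell and 4 rose with DMSO, with median log2 fold changes of -0.97 and -0.36. ASF1B, a histone chaperone, had 74.8 and 76.2 CPM with estradiol and 42.8 and 41.2 CPM with DMSO, against 206 and 211 CPM untreated, and passed in both (adjusted p = 0.00115 and 0.000109). MCM10, which helps to open the origin, had 8.79 and 7.71 CPM with estradiol, against 30.5 and 36.8 CPM untreated. TIMELESS, of the fork protection complex, had 167 and 177 CPM with DMSO, against 429 and 436 CPM. The 4 that rose with DMSO were ORC2, ORC3, ORC4 and ORC5, subunits of the origin recognition complex, with log2 fold changes of 0.91 to 1.65. All these lists were counted without the GC and length offsets. Over all genes, GC content ran with the log2 fold change (Spearman correlation -0.60 with DMSO and 0.27 with estradiol), and its part in these values was not tested. Of 25 further genes of nucleotide metabolism, 9 fell and 1 rose with estradiol and 12 fell and 1 rose with DMSO. DUT, the dUTPase, had 41.1 and 40.04 CPM with estradiol, against 123 and 102 CPM untreated (log2 fold change -1.46, adjusted p = 0.000225), and CAD, which starts pyrimidine synthesis, had 237 and 197 CPM with DMSO, against 483 and 498 CPM (log2 fold change -1.18, adjusted p = 0.000888). Of 21 genes of the E2F and RB axis, 11 fell and 0 rose with estradiol and 8 fell and 3 rose with DMSO. MYBL2, an E2F target, had 63.0 and 48.0 CPM with DMSO, against 355 and 351 CPM, and CCNA2, the S-phase cyclin A, had 7.94 and 5.26 CPM with estradiol, against 33.9 and 31.9 CPM untreated. The repair genes of stalled forks counted 12 of 17 lower with estradiol and 6 lower and 1 higher with DMSO, with RAD54L, a recombination motor, at 20.2 and 21.5 CPM with estradiol and 14.1 and 16.9 CPM with DMSO, against 60.7 and 62.3 CPM untreated.

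Of 20 genes of G2 and mitosis, listed as a contrast, 18 fell with estradiol and 11 fell and 1 rose with DMSO, with median log2 fold changes of -1.30 and -0.79. AURKB, a mitotic kinase, had 60.1 and 63.2 CPM with estradiol and 34.0 and 29.8 CPM with DMSO, against 219.6 and 233 CPM untreated. Of 12 genes of CDK inhibitors and G1 cyclins or their kinases, 3 fell and 1 rose with estradiol and 7 fell and 3 rose with DMSO. CDKN2B, an inhibitor of CDK4 and CDK6, rose in both, with 23.8 and 23.2 CPM with estradiol and 32.9 and 32.3 CPM with DMSO, against 5.42 and 5.33 CPM untreated (adjusted p = 0.000439 and 0.000131). CDKN2C, an inhibitor of the same kinases, fell in both, with 15.2 and 14.4 CPM with estradiol and 10.8 and 10.3 CPM with DMSO, against 32.2 and 28.0 CPM untreated (adjusted p = 0.0045 and 0.000392). CDKN1C, another CDK inhibitor, also fell in both, CDK6 fell with estradiol, CDKN1A, CDKN2A, CDKN2D, CCND3 and CDK4 fell with DMSO, and CDKN1B and CCND2 rose with DMSO. In the same libraries all 12 genes of the amino acid stress response rose with estradiol and with DMSO, with median log2 fold changes of 3.69 and 3.15. ASNS, asparagine synthetase, had 889 and 771 CPM with estradiol and 661 and 771 CPM with DMSO, against 62.1 and 69.3 CPM untreated, and DDIT4, an inhibitor of growth signaling, had 494 and 548 CPM with estradiol and 312 and 265 CPM with DMSO, against 14.9 and 14.2 CPM untreated. Among 13 mitochondrial mRNAs, 2 fell with estradiol and 4 with DMSO, shares near those of all genes. The part of the stress genes in the fall of the replication genes was not tested.

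**Figure D5:**
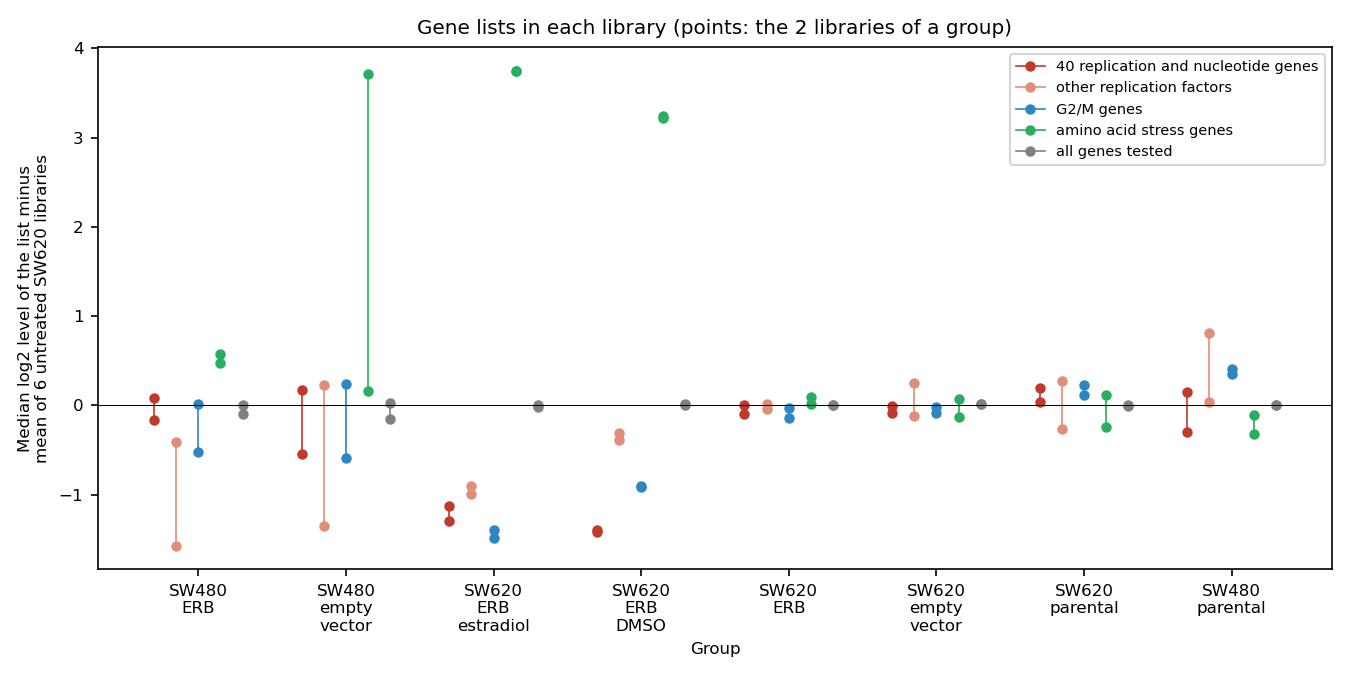
Median log2 level of the 40 genes and of other lists in each library, minus the mean of the 6 untreated SW620 libraries, with a point per library joined within a group. The 40 genes lie at -1.13 and -1.29 with estradiol and -1.42 and -1.40 with DMSO. The amino acid stress genes lie there at 3.75 and 3.22 in the first library of each. Library II of SW480 with empty vector has a median of -0.54 for the 40 genes and 3.71 for the stress genes. The 40 genes did not move together in that library: against library I they ran from -3.15 for POLE2 to 2.9 for CDT1. Of the genes with a known GC content, POLE2 had the lowest and CDT1 the highest.

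ERB alone, without added hormone, went with no detectable change. In SW620, 0 of 40 genes passed for ERB against empty vector by edgeR (background 0.00605%, 1 gene, which was ESR2), 0 at an unadjusted p under 0.05 (background 1.71%), and 0 by DESeq2 and limma-voom. The median log2 fold change was 0.02, and the median half-width of the 95% intervals was 0.40 on the log2 scale. Changes under about that size were not detectable, and larger ones could be missed, because calls were adjusted over all genes. In the same fit, RFC2 at -0.66 for empty vector against parental cells did not pass (edgeR adjusted p = 0.434). MCM2 had 740.1 and 725 CPM with ERB, against 804 and 595 CPM with empty vector, CDC6 had 90.0 and 105 CPM, against 86.8 and 103 CPM, and PCNA had 504 and 587 CPM, against 520.1 and 631 CPM. The groups overlapped in MCM2, CDC6 and PCNA. The largest positive estimates were those of RFC3 at 0.29 (95% interval -0.40 to 0.99) and RFC5 at 0.17 (-0.16 to 0.49), and the largest negative ones those of RPA3 at -0.23 (-0.61 to 0.16) and POLE2 at -0.19 (-0.90 to 0.51).

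In the libraries labelled SW480, 0 of 40 genes passed for ERB against empty vector (background 1.10%), 0 at an unadjusted p under 0.05 (background 9.67%), and 0 by DESeq2 and limma-voom, with a median half-width of the intervals of 0.85. The spread between libraries was wide: MCM2 had 1696 and 1028 CPM with ERB, against 662 and 1380.0 CPM with empty vector, CDT1 had 271 and 159 CPM, against 54.9 and 414 CPM, and PCNA had 230.1 and 416 CPM, against 572 and 208 CPM. In each of the 3 genes the groups overlapped, and over the 40 genes ERB lay above empty vector without overlap for 1 (background 13.9%) and below for 0 (background 8.88%). The largest positive estimates were UHRF1 at 0.91 (adjusted p = 0.52) and E2F1 at 0.66 (adjusted p = 0.63), and the largest negative ones POLA1 at -1.28 (adjusted p = 0.605) and POLE2 at -1.05 (adjusted p = 0.69). The difference of the ERB effect between the lines passed for 0 of 40 genes (background 0.189%). It was under an unadjusted p of 0.05 for 0 (background 4.48%), and DESeq2 and limma-voom called 0. Its intervals had a median half-width of 1.20. The 2 largest positive estimates were UHRF1 at 0.92 and E2F1 at 0.73, and the 2 largest negative ones RFC3 at -1.31 and POLA1 at -1.16. Over the 39 genes with a known GC content, the Spearman correlation of GC content with the log2 fold change was 0.75 for ERB against empty vector. For the difference of the ERB effect it was 0.70. With GC and length offsets POLE2 was at 0.17 for ERB against empty vector, with the sign turned.

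Transduction with empty vector was compared with parental cells. In SW620, 0 of 40 genes passed (background 0.0847%), 4 were under an unadjusted p of 0.05 (background 6.21%), and DESeq2 and limma-voom called 0. Of the 40, 35 had a negative estimate, with a median log2 fold change of -0.17 beside 0.0072 over all genes tested. RFC2 had 164 and 124 CPM with empty vector, against 193 and 264 CPM in parental cells (log2 fold change -0.66, adjusted p = 0.434). By edgeR with GC and length offsets it passed (log2 fold change -0.60, adjusted p = 0.0142), also with the library number added as a term (adjusted p = 0.0439). Without parental library I its log2 fold change was -0.93. GINS2 was at -0.53 (adjusted p = 0.775), and the largest positive estimates were RFC3 at 0.26 and RFC4 at 0.16 (adjusted p = 0.997). TYMS had 236 and 236 CPM with empty vector, against 299 and 363 CPM in parental cells, without overlap between the groups and without passing the test (log2 fold change -0.48, adjusted p = 0.539).

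In the libraries labelled SW480, CDT1 and POLE rose with empty vector against parental cells, 2 of 40 (background 14.9%), and RRM2 and RFC3 fell, 2 of 40 (background 16%), so the shares were under those of all genes. RRM2 had 267 and 116 CPM with empty vector, against 847 and 553 CPM in parental SW480 (log2 fold change -1.87 with an SE of 0.36, adjusted p = 0.00331), and RFC3 had 44.9 and 10.5 CPM, against 56.3 and 149 CPM (log2 fold change -1.89 with an SE of 0.67, adjusted p = 0.0497). CDT1 had 54.9 and 414 CPM, against 60.4 and 28.7 CPM (log2 fold change 2.40 with an SE of 0.74, adjusted p = 0.0304), and POLE had 197 and 239 CPM, against 144 and 108 CPM (log2 fold change 0.79 with an SE of 0.24, adjusted p = 0.0283). The call of POLE did not hold on FPKM (-0.16), with offsets for GC content and length (0.21, adjusted p = 0.4), by library totals, without a filter, without parental library II or without empty vector library II. With the offsets CDT1 was at 0.87, RRM2 at -1.69 and RFC3 at -1.35, and these 3 passed; without them the Spearman correlation of GC content with the log2 fold change was 0.71 over 39 genes. For CDT1 library I with empty vector lay between the parental libraries and library II far above. Without empty vector library II the log2 fold change of CDT1 was 0.29, only RRM2 of these 4 passed, and ORC1 passed as well (background 15.7%). Without empty vector library I, 6 genes rose (background 25.6%) and 19 fell (background 32.5%). With the parental and empty vector libraries alone 0 passed (background 7.74%). In library II of empty vector the amino acid stress genes lay 3.71 above the untreated SW620 mean on the log2 scale, and in library I 0.16; their part in these values was not tested. The difference of the vector effect between the lines passed for 0 of 40 genes (background 7.20%), 6 were under an unadjusted p of 0.05 (background 28.3%), DESeq2 called 2 and limma-voom 0. Its 2 largest positive estimates were CDT1 at 2.55 (adjusted p = 0.133) and POLD1 at 1.58, and the 2 largest negative ones RFC3 at -2.15 and RRM2 at -1.46 (adjusted p = 0.0953).

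Between the parental lines 2 of 40 genes were lower in SW620 than in SW480 (background 11.2%) and 0 were higher, with a median log2 fold change of 0.22 beside -0.05 over all genes. RRM2 had 269.7 and 287 CPM in parental SW620, against 847 and 553 CPM in parental SW480 (log2 fold change -1.33 with an SE of 0.36, adjusted p = 0.0225). RFC3 had 28.3 and 14.8 CPM, against 56.3 and 149 CPM (log2 fold change -2.25 with an SE of 0.68, adjusted p = 0.0371), with both libraries of SW620 below both of SW480 in the 2 genes. With only the 4 parental libraries, 0 genes passed (background 9.28%; RRM2 adjusted p = 0.108, RFC3 adjusted p = 0.079), and neither call held without SW620 library I or without SW620 library II. RRM2 also did not pass without SW480 library I (log2 fold change -1.01), nor RFC3 without SW480 library II (-1.39). The range of the count when a library was left out was 0 to 3. In a fit without library II of SW480 with empty vector, chosen after seeing the data, 3 genes were higher (background 11.6%), ORC1, GINS3 and RFC5, and 2 lower (background 16.5%), RRM2 and RFC3. With GC and length offsets, 5 were higher (background 13.2%), POLA1, PRIM1, ORC1, PCNA and MCM3, and 2 lower (background 19.4%), RRM2 and RFC3. CDC6 had 116 and 106 CPM in SW620, against 179 and 195 CPM in SW480 (log2 fold change -0.75, adjusted p = 0.265).

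Between the lines, no gene of the 40 passed in either transduced group. For empty vector, libraries labelled SW480 against SW620, 0 of 40 genes passed (background 0.326%), 2 were under an unadjusted p of 0.05 (background 10.5%), and DESeq2 and limma-voom called 0. The 2 largest positive estimates were CDT1 at 1.59 and TK1 at 1.05, and the 2 largest negative ones UHRF1 at -1.16 and PRIM1 at -0.57; without SW480 library I, 4 genes were higher (background 13.2%) and 9 lower (background 10.4%). For ERB, SW480 against SW620, 0 of 40 passed (background 2.0%), 3 were under an unadjusted p of 0.05 (background 23.7%), and DESeq2 and limma-voom called 0. TK1 had 1647 and 792 CPM in SW480 with ERB, against 439 and 404 CPM in SW620 with ERB (log2 fold change 1.53, adjusted p = 0.207), and POLD1 had 388 and 213 CPM, against 123 and 101.4 CPM (log2 fold change 1.42). POLA1 had 11.4 and 36.8 CPM, against 59.8 and 74.3 CPM (-1.47), and POLE2 had 1.94 and 6.87 CPM, against 11.5 and 11.3 CPM (-1.35). The libraries of SW480 with ERB lay above those of SW620 with ERB without overlap for 17 of 40 genes (background 38.0%) and below for 13 (background 37.9%), shares near those of all genes. Over the 39 genes GC content ran with the log2 fold change (Spearman correlation 0.89 for ERB and 0.78 for empty vector). With the offsets, which remove such a trend, the correlations were 0.06 and 0.32.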

How the data were processed

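The 16 libraries held 12743940 to 18948283 counts. The authors deposited raw read counts for each Ensembl gene and, separately, FPKM values, and per the labels' protocols the RNA was poly(A)-selected with a stranded kit. The build was GRCh37 and the tools were Cufflinks 2.1.1, HTSeq 0.6.1, Picard 1.29, TopHat2 2.0.4 and SAMtools, per the submitters' processing notes, which as given here tie no tool to a table.

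From the deposited counts, edgeR 4.0.16 (TMM scaling, its filter on low counts, quasi-likelihood test, Benjamini-Hochberg adjustment over all genes, called at 0.05) was run in R 4.3.3. Comparisons within SW620 used the 10 SW620 libraries (16533 genes), because the libraries labelled SW480 with empty vector spread widely. All others used the 16 libraries (17464 genes), because the SW480 libraries alone leave 3 residual degrees of freedom. Deposited FPKM gave levels between genes and an alternative in limma 3.58.1 on log2(FPKM + 1), where low genes have understated changes. DESeq2 1.42.0, limma-voom, other scalings and filters, offsets fitted by splines on GC content and length (GENCODE 29), and single libraries left out were also tried. The fits were also run on simulated counts, which were given a smaller spread than the median spread of these libraries, so no result here rests on that run.

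The members, gene lists and fits were chosen with earlier results of these data known. Named genes were 11 fixed anchors, up to 8 called per direction with the smallest p in each comparison, the 2 largest estimates each way where fewer than 2 were called, the 3 highest, lowest, widest and narrowest, and up to 3 called genes of each other list. Exceptions named after their values were seen are counts of 6 or fewer.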

Additional observations from a re-analysis of the deposited data

How the results depend on the processing

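Of the counts of genes called, 169 of 223 alternatives stayed within 1.5 times the reported count, and of the named log2 fold changes 36 changed sign; the causes were not tested. Parental SW620 against SW480 (2 reported) gave 4 by DESeq2, 7 with GC and length offsets, 5 without the second SW480 empty vector library and 0 by library totals, FPKM in 3 forms or the groups alone. Empty vector against parental in SW480 (4) gave 1 by library totals and by each FPKM form, 7 without a filter, 9 by DESeq2, 11 with offsets and 0 with the groups or the 6 SW480 libraries alone. In SW620 it gave 1 with offsets, namely RFC2. ERB against parental in SW480, tried in place of ERB against empty vector, gave 10. There ERB and transduction itself cannot be told apart. The counts in this section are given without the shares of all genes. They describe the dependence on processing and are not read as results about the genes. With all 16 libraries, DMSO against untreated gave 19, estradiol against untreated 5 and estradiol against DMSO 0; the last also gave 10, 9 and 3 on FPKM (pseudocounts 1 and 0.1, and unfiltered) and 7 with offsets. Without a filter, SW480 against SW620 gave 1 with empty vector and 5 with ERB, and the difference of the vector effect 3; that difference gave 2 by DESeq2 and 5 with offsets.

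The replicate block, a fit with the library number as a term, gave 1 for the parental lines, 2 for empty vector against parental in SW480, 34, 31 and 18 for DMSO against untreated, estradiol against untreated and estradiol against DMSO, and 0 elsewhere; with offsets it gave 7, 10 and 5 for the parental lines, empty vector in SW480 and estradiol against DMSO, 1 for empty vector in SW620 and 3 for the difference of the vector effect. Over 28 pairs of groups the correlation of same-numbered libraries ran from -0.838 to 0.772, and 10 exceeded 0.1. The labels do not say that a number marks a shared batch, so the numbers were not taken to pair the libraries; whether they do was not tested further.

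Leaving out 1 library gave 0 to 3 for the parental lines, 0 to 1 and 1 to 25 for empty vector in SW620 and SW480, 0 to 14 for estradiol against DMSO, 0 to 13 for empty vector between lines and 0 to 15 for the difference of the vector effect.

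Log2 fold changes that changed sign were as follows. Empty vector against parental: POLE in SW480 at -0.159 and -0.165 on FPKM, RFC3 at -0.136 to 0.747 and RFC4 at -0.0118 to 0.294 in SW620 with 1 library left out. ERB in SW620: RFC5 at -0.00248 and -0.00251 on FPKM and -0.0655 against parental cells, POLE2 at 0.0114 and 0.0135 on FPKM and -0.373 to 0.0168 with 1 library left out. ERB in SW480: UHRF1 at -0.165 against parental cells, POLE2 at 0.168 with offsets and 0.219 with the replicate block added, and with 1 library left out POLE2 at -2.29 to 1.64 and POLA1 at -2.41 to 0.373. Estradiol against DMSO: POLE at -0.0114 and -0.0125 on FPKM, and with offsets, and with the replicate block added, E2F1 at -0.0256 in both, PRIM1 at 0.334 and 0.333, POLA1 at 0.0606 in both and RRM1 at 0.0187 and 0.0199. With 1 library left out, SW480 against SW620 with empty vector had CDT1 at -0.518 to 2.39, TK1 at -0.236 to 1.70 and PRIM1 at -1.93 to 0.0905, the difference of the ERB effect had RFC3 at -2.20 to 0.115 and POLA1 at -2.30 to 0.494, and that of the vector effect had POLD1 at -0.262 to 2.35. With 2 libraries a group, small changes were not detectable.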

Other observations

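The 2 libraries labelled SW480 with empty vector differed widely from each other in these genes. Library II minus library I ran from -3.15 for POLE2 to 2.9 for CDT1 on the log2 scale, with a median of -0.78 over the 40 genes. Of the genes with a known GC content, POLE2 had the lowest, 38.0%, and CDT1 the highest, 65.3%. The part of GC content in the difference between the 2 libraries was not tested. The 40 genes took 0.614% of the reads of library II and 0.897% of those of library I, and mitochondrial mRNAs took 7.18% and 4.84%.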
